A study of Sus scrofa with 6 samples.

Results

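Collagen genes encode the chains of the main structural proteins of the extracellular matrix. They were taken here as every identifier whose pig gene symbol reads COL, a number, A and a number, which gave 40 of the 35670 identifiers in the count table. Of these 40 genes, 22 had enough reads to be tested. The RNA came from granulosa cells, which line the ovarian follicle and nourish the oocyte. They were aspirated from small follicles of pigs (Sus scrofa), grown in flasks in serum-containing medium and profiled with stranded mRNA libraries. At more than 70% confluency, plates were kept at 37 °C (control group, n = 3) or moved to 42 °C (heat group, n = 3) for 6 hours, and the cells were then released with trypsin. The labels give no strain, age, batch or pooling of animals. They number the samples of a group as biological replicates without saying whether these came from separate animals or cultures, so p-values measure only the spread between these samples.

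Collagen chains fold in threes into a triple helix inside the endoplasmic reticulum, where prolines and lysines are hydroxylated and the chaperone HSP47 (gene SERPINH1) holds the helix. Fibrillar collagens (types I, III, V, XI and relatives) pack into banded fibrils, and network collagens (types IV and VIII) form sheets. FACIT collagens decorate the surface of fibrils, and type VI builds beaded microfibrils. Multiplexins (types XV and XVIII) sit at basement membranes and carry heparan or chondroitin sulfate, and a few collagens span the plasma membrane. In the follicle, type IV collagen is part of the basal lamina on which granulosa cells rest, and the fibrillar types are typical of the surrounding theca and stroma.

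The deposited counts summed to between 18711440 and 29606378 per library. Within each group 1 library stood apart. Over 14242 genes on the log2 CPM scale, Pearson's r was 0.990 between control 2 and control 3 and 0.991 between heat 1 and heat 2. Control 1 reached 0.901 and 0.905 with the other controls, and heat 3 reached 0.916 and 0.909 with the other heat libraries. Such correlations across genes are descriptive, since genes are no independent replicates. Levels are given below as CPM, a gene's counts relative to the size of its library after TMM scaling. The labelled cell type was checked against 20 granulosa cell markers, of which 17 matched a symbol. The gonadotropin receptor gene FSHR lay between 0 and 2.14 CPM, and the inhibin gene INHA and the anti-Müllerian hormone gene AMH stayed below 1 CPM in every library. Of the 17 matched markers, 6 stayed below 1 CPM in every library, and FOXL2, CYP19A1 and HSD3B1 had no matching symbol. The steroidogenic enzyme gene CYP11A1 was present at 29.0 to 69.6 CPM and the transcription factor gene GATA4 at 9.56 to 82.1 CPM. The highest markers of the list were CDH2 at 210 to 850 CPM, SERPINE2 at 185 to 701 CPM and INHBA at 154 to 387 CPM.

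Collagen genes took a larger share of the reads in the heat libraries, but the ranges of the groups overlapped. Together they held 6.07, 1.30 and 1.21% of all counts in control 1, 2 and 3. The heat libraries 1, 2 and 3 gave 11.7, 11.4 and 4.46%. Control 1 was therefore above heat 3, while control 2 and control 3 were the lowest libraries. The means were 2.86 ± 2.78% in controls and 9.20 ± 4.11% in heat (SD, n = 3). Counting error was small beside these gaps. For control 3, the lowest, the 95% Wilson interval ran from 1.20 to 1.21%. In bulk RNA, fewer cells of a type and less RNA per cell cannot be told apart. Most of the collagen reads came from 5 fibrillar genes, COL1A1, COL1A2, COL3A1, COL5A1 and COL5A2. Their part of the collagen reads was 92.3% in control 1 but 81.1 and 80.6% in the other controls, and the heat libraries 1, 2 and 3 gave 91.9, 91.7 and 90.2%. These are shares of reads, which grow with transcript length, and not shares of molecules.

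**Figure D1:**
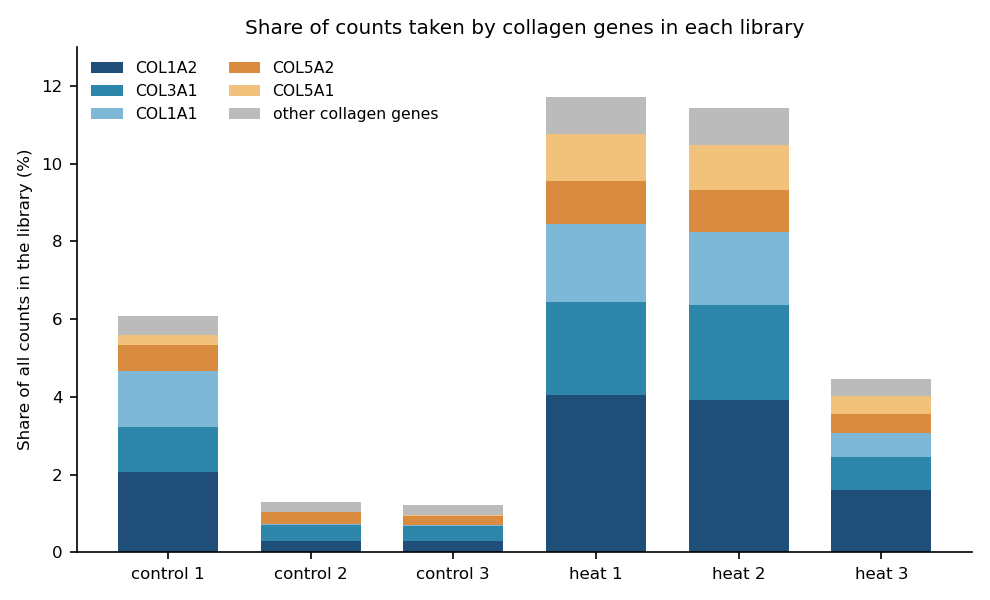
Stacked bars give the share of all counts in each library (%, y axis) taken by 5 fibrillar collagen genes and by the other collagen genes together; each bar is 1 library. The bars of control 2 and control 3 end at 1.30 and 1.21%, that of control 1 at 6.07%, and those of heat 1, 2 and 3 at 11.7, 11.4 and 4.46%.

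The series asks which genes respond to heat. Among collagens, COL6A1, COL6A2 and COL8A2 were called higher in heat by edgeR's quasi-likelihood test with Benjamini-Hochberg adjustment over all tested genes (adjusted p below 0.05). These 3 of 22 (13.6%) compare with 6.71% of all 14242 tested genes called higher. With library totals as the only scaling, all genes split into 1583 higher and 416 lower, against 956 higher and 615 lower with TMM, and 6 collagen genes were higher and none lower (11.1 and 2.92% of all genes). No collagen gene was called lower, against 4.32% of all genes. At an unadjusted edgeR p below 0.05, 10 of the 22 collagen genes were higher and 2 lower. The share of all genes at that unadjusted level was not counted, so these counts have no background and are not read as a result. DESeq2 called 11 higher and 2 lower of 28 tested collagen genes (12.1 and 9.42% of all genes). The median log2 fold change, heat minus control, was 1.56 over the 22 genes, with a range from -1.68 to 3.43, and 0.05 over all tested genes. The estimate was positive for 20 of them. In 10 of 22 every heat library lay above every control, which held for 20.9% of all tested genes. In 1 of 22 every heat library lay below every control, against 16.8% of all tested genes. These counts do not stand as support for a direction, because the filter on low counts (0.488 CPM in 3 libraries) let some genes in through the heat libraries. COL8A2 and COL23A1 had no control at that level, and they make up 1 of the 3 calls and 2 of the 10 genes without overlap. COL6A2, COL27A1, COL4A6 and COL17A1 reached it in 1 or 2 controls, and all 22 reached it in every heat library.

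**Figure D2:**
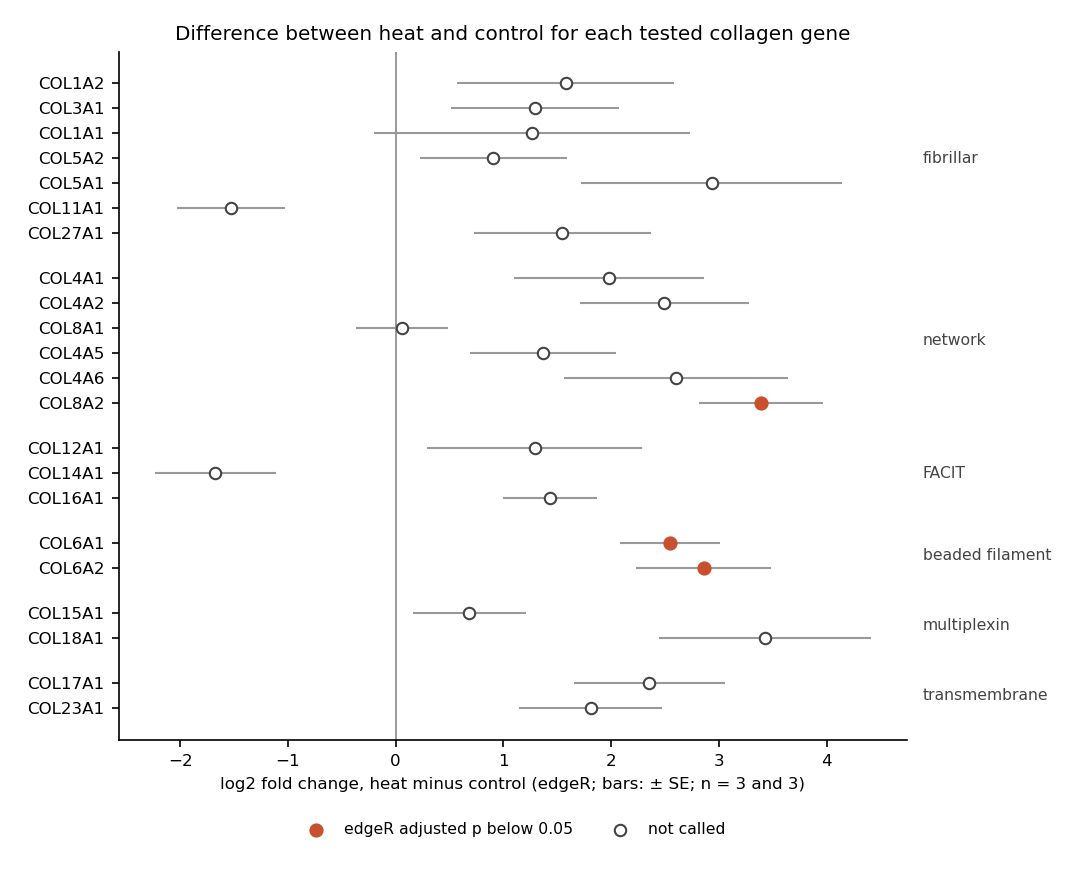
Points give the edgeR log2 fold change, heat minus control (x axis), of the 22 tested collagen genes, with bars of ± 1 SE from 3 libraries per group; genes are grouped by collagen class. Filled points, COL8A2 at 3.39, COL6A1 at 2.55 and COL6A2 at 2.86, passed the test, and COL11A1 and COL14A1 are the genes left of 0.

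The calls depended on which libraries entered. Without control 1, edgeR called 16 of 25 tested collagen genes higher and 2 lower, against 19.6 and 12.3% of all genes. Without heat 3 it called 9 of 25 higher and none lower, against 18.4 and 17.7% of all genes. In that fit 10 of 25 collagen genes had an unadjusted edgeR p below 0.05 in the higher direction and 1 in the lower. The share of all genes at that unadjusted level was again not counted. Without control 2, control 3, heat 1 or heat 2 no collagen gene passed. Of all genes 0, 0, 7 and 6 passed after adjustment in those fits, all in the higher direction (0.0475% without heat 1 and 0.0406% without heat 2). At an unadjusted edgeR p below 0.05 there were 8 of 25, 11 of 25, 9 of 22 and 9 of 22 collagen genes. These unadjusted counts cannot be set against the adjusted ones, and the share of all genes at that level was not counted. With control 1 and heat 3 both left out, 23 of 25 were higher and 2 lower, but then 41.2% of all genes were higher and 38.4% lower. That fit compares the highly correlated libraries of each group alone.

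Type VI collagen forms beaded microfibrils that link cells to the fibrillar matrix. COL6A1, its alpha 1 chain gene, stood at 4.01, 2.49 and 3.57 CPM in control 1, 2 and 3 and at 28.7, 20.4 and 9.63 CPM in heat 1, 2 and 3. Controls lay close together, and heat 3, the lowest heat library, was still above control 1. The group means were 3.35 ± 0.781 and 19.6 ± 9.57 CPM (SD, n = 3), a log2 fold change of 2.55 ± 0.46 (SE; edgeR adjusted p = 0.0302). COL6A2, the alpha 2 chain gene, stood at 1.00, 0.437 and 0.793 CPM in the controls and at 9.03, 4.88 and 2.23 CPM in heat. These levels rest on 41 control reads and 359 heat reads. Its groups did not overlap either, and the log2 fold change was 2.86 ± 0.62 (edgeR adjusted p = 0.0383). Limma-voom left COL6A2 just outside the threshold (adjusted p = 0.0527). COL6A3, which encodes the third main chain of type VI, had 1 read over all 6 libraries. Whether the identifier with that symbol is the expressed COL6A3 locus was not tested, so this read count does not show that the gene was silent. COL6A5 had 1 read and COL6A6 had 16, so neither was tested. On Sscrofa11.1, RefSeq places COL6A2 on an unplaced sequence.

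Type VIII collagen is a short-chain network collagen known from vascular and corneal matrix, and its chain genes COL8A1 and COL8A2 had different values here. COL8A2 stood at 0.334, 0.0873 and 0.298 CPM in the controls and at 2.99, 2.51 and 1.99 CPM in heat 1, 2 and 3. Every heat library was above every control, and heat 3 was near the other heat libraries. The log2 fold change was 3.39 ± 0.58 (SE; edgeR adjusted p = 0.0276), from 13 control reads and 179 heat reads. No control reached the level of the filter on low counts, so COL8A2 entered the test through its heat libraries alone and had to be higher in heat to be tested. With no filter it was also called (edgeR adjusted p = 0.00444). COL8A1 stood at 929, 539 and 449 CPM in the controls and at 794, 716 and 485 CPM in heat. Its groups overlapped fully, with control 1 the highest library, and the log2 fold change was 0.06 ± 0.43 (edgeR adjusted p = 0.936), with a sign that depended on the setting (-0.0018 in DESeq2).

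Type IV collagen is the sheet-forming collagen of basement membranes. COL4A1 stood at 1365, 167 and 231 CPM in control 1, 2 and 3 and at 3065, 2857 and 1039 CPM in heat 1, 2 and 3. Control 1 was above heat 3, and the log2 fold change of 1.98 ± 0.88 (SE) did not pass (edgeR adjusted p = 0.157). COL4A2, which encodes the partner chain, stood at 439, 77.9 and 109.6 CPM in the controls and at 1556, 1480 and 494 CPM in heat. Its groups did not overlap, but the gap between control 1 and heat 3 was small and the log2 fold change of 2.49 ± 0.79 did not pass (edgeR adjusted p = 0.0732). COL4A1 and COL4A2 are neighbours on chromosome 11 of Sscrofa11.1, at 76858332 to 76997409 and 76996885 to 77161617. Their RefSeq spans overlap by 525 bases. The labels do not state the strand setting of the counting, so how reads from that stretch were assigned is not known. The chain genes COL4A5 and COL4A6 are X-linked. COL4A5 ran from 17.2 to 89.9 CPM in controls and from 58.8 to 148 CPM in heat, with control 1 above heat 3. COL4A6 stood at 3.74, 0.175 and 0.298 CPM in the controls and at 10.3, 10.0 and 4.46 CPM in heat, without overlap (log2 fold change 2.60 ± 1.04; edgeR adjusted p = 0.125). COL4A3 and COL4A4, which encode chains found in the glomerular basement membrane, had 7 and 5 reads over all libraries and were not tested.

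Type I collagen is the main fibril former of connective tissue. COL1A1, its alpha 1 chain gene, had the widest spread among controls of the tested collagen genes, with 17714 CPM in control 1 against 270 and 387 CPM in the other controls. Heat 1, 2 and 3 stood at 20725, 17944 and 5579 CPM. Control 1 thus lay with heat 1 and heat 2 and far above heat 3, and the log2 fold change of 1.27 ± 1.47 (SE) was smaller than its error (edgeR adjusted p = 0.560). COL1A2, the alpha 2 chain gene, stood at 25719, 2817 and 2737 CPM in the controls and at 41605, 37308 and 14618 CPM in heat. It did not pass either (log2 fold change 1.58 ± 1.01; edgeR adjusted p = 0.294). Leaving out control 1 raised the log2 fold change of COL1A1 from 1.27 to 5.47 (edgeR adjusted p = 0.00913), and leaving out control 2 or control 3 lowered it to 0.68 and 0.69. COL1A1 lies on chromosome 12 at 26379087 to 26397180 and COL1A2 on chromosome 9 at 74174484 to 74210407.

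Type III collagen forms the finer fibrils of distensible tissues, and type V is built into type I fibrils and limits their diameter. COL3A1 stood at 14795, 4194 and 3453 CPM in the controls and at 24429, 22987 and 7507 CPM in heat (log2 fold change 1.29 ± 0.78 SE; edgeR adjusted p = 0.271). COL5A2 stood at 8649, 2950 and 2221 CPM in the controls and at 11139, 10165 and 4606 CPM in heat (log2 fold change 0.91 ± 0.68; edgeR adjusted p = 0.369). In both genes control 1 lay between heat 3 and the other heat libraries. They are neighbours on chromosome 15, 16177 bases apart, at 93556914 to 93595678 and 93611856 to 93981131. COL5A1, the other type V chain gene tested, differed more. It stood at 3225, 148 and 238 CPM in the controls and at 12443, 11116 and 4082 CPM in heat. All heat libraries were above all controls, but with a wide spread in each group the log2 fold change of 2.94 ± 1.21 did not pass (edgeR adjusted p = 0.134). COL27A1, a fibrillar collagen of cartilage, stood between 0.437 and 4.54 CPM in controls and between 4.28 and 6.63 CPM in heat, and the overlap again came from control 1.

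COL11A1 and COL14A1 were the tested collagen genes with control 1 below both other controls and with a negative log2 fold change. COL11A1, which encodes a type XI chain related to type V, stood at 142, 410 and 344 CPM in control 1, 2 and 3 and at 118, 133 and 59.5 CPM in heat 1, 2 and 3. Every heat library was below every control, but control 1 was close to heat 2. The log2 fold change was -1.53 ± 0.50 (SE; edgeR adjusted p = 0.0805). COL14A1, a FACIT collagen that binds fibril surfaces, stood at 127, 461 and 382 CPM in the controls and at 138, 110 and 56.1 CPM in heat. Here heat 1 was above control 1, and the log2 fold change was -1.68 ± 0.56 (edgeR adjusted p = 0.0841). In both DESeq2 and the fit without control 1 they were called lower (adjusted p of 0.0149 and 0.0206 for COL11A1, 0.0139 and 0.0185 for COL14A1).

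The other tested FACIT collagens were COL12A1 and COL16A1. COL12A1, which encodes a long FACIT of dense connective tissue, stood at 1654, 140 and 114 CPM in the controls and at 1851, 1765 and 1054 CPM in heat, and its groups overlapped through control 1 (edgeR adjusted p = 0.382). COL16A1 was the tested collagen gene with the narrowest spread among controls, at 41.5, 41.8 and 41.3 CPM. In heat it stood at 148, 140 and 48.8 CPM, so heat 1 and heat 2 were far above the controls and heat 3 was slightly above them. The log2 fold change was 1.43 ± 0.44 (SE) and did not pass (edgeR adjusted p = 0.0690), but it passed without heat 3, at 1.77 (edgeR adjusted p = 0.00851).

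COL18A1, the multiplexin whose C-terminal fragment is endostatin, had the highest estimated log2 fold change of the tested collagens, 3.43 ± 0.99 (SE). It stood at 64.6, 6.16 and 9.37 CPM in the controls and at 417, 334 and 111 CPM in heat. The groups did not overlap, yet the test was not passed (edgeR adjusted p = 0.0602). COL18A1 was called higher with library totals as the scaling, in DESeq2 and in limma-voom (adjusted p = 0.0340, 5.64e-04 and 0.0394). COL15A1, the other multiplexin, stood at 994, 546 and 476 CPM in the controls and at 1448, 1277 and 517 CPM in heat (edgeR adjusted p = 0.376), with heat 3 inside the range of the controls. Of the transmembrane collagens, COL17A1, the hemidesmosome collagen, stood at 0.868, 0.218 and 0.149 CPM in the controls and at 2.19, 2.56 and 1.38 CPM in heat. It had no overlap and an edgeR adjusted p of 0.0649. COL23A1 stayed below 1 CPM in every library, with 14 control and 64 heat reads (edgeR adjusted p = 0.105).

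**Figure D3:**
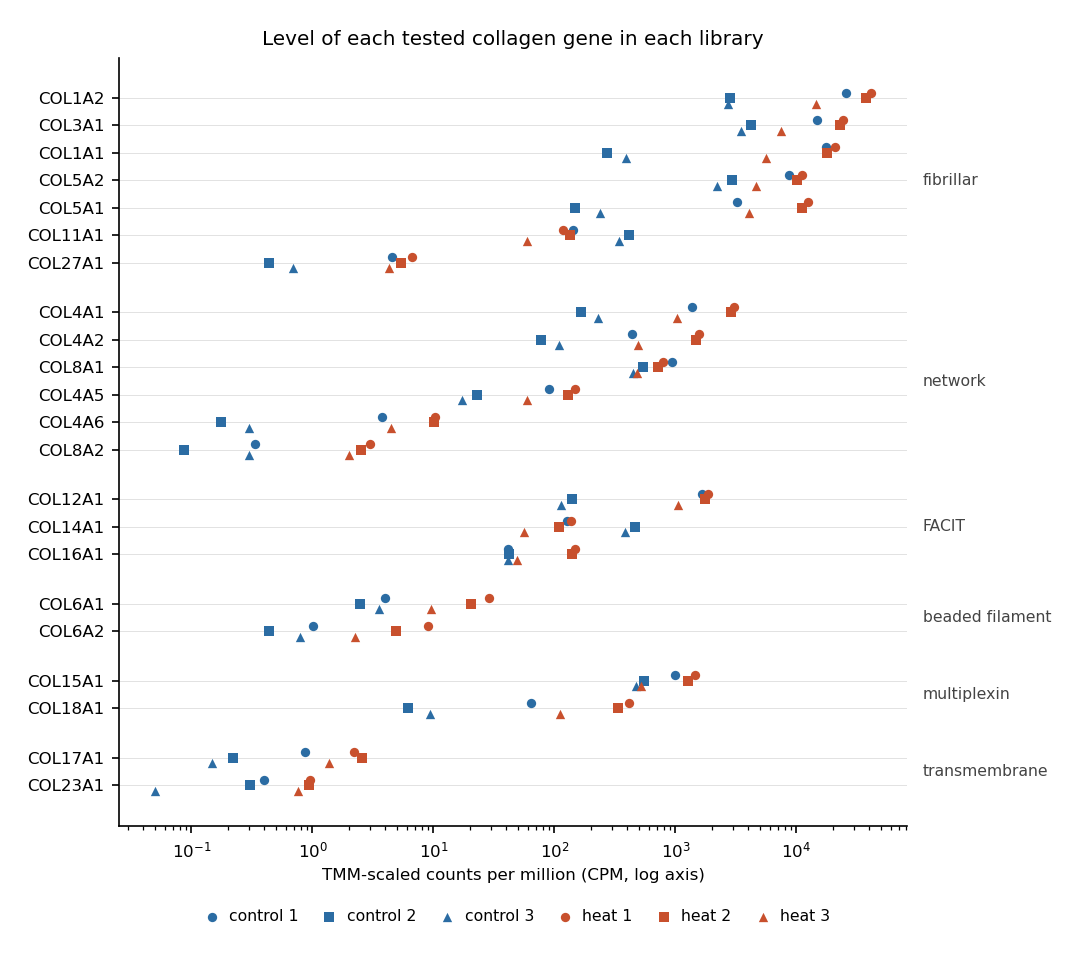
Each point is the level of 1 tested collagen gene in 1 library (TMM-scaled CPM, log axis), with controls in blue, heat libraries in orange, and the replicate number as the symbol. Heat 3 is the lowest heat library in each of the 22 genes, and control 1 lies above control 2 and control 3 in 19 of them.

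The remaining 18 collagen genes did not pass the filter on low counts. COL10A1 and COL25A1 had no read in any library, which allows up to 3 reads in each. COL11A2, the second type XI chain gene, had 0 reads in every control and 47, 58 and 4 reads in heat 1, 2 and 3. Set against a floor of 3 reads over the control group, the pooled reads of the heat group were at least 28.4-fold higher. This bound covers counting error only and need not hold for each heat library, since heat 3 stood at 0.122 CPM. Nearly all of its reads came from heat 1 and heat 2. COL9A3, a FACIT chain of cartilage, had 5 control reads, all in control 1, and 11, 29 and 5 reads in heat. COL5A3, the third type V chain gene, had 5 control reads and 16, 13 and 8 reads in heat 1, 2 and 3, with every heat library above every control. The others, COL2A1, COL24A1, COL4A3, COL4A4, COL9A1, COL19A1, COL21A1, COL22A1, COL6A3, COL6A5, COL6A6, COL13A1 and COL28A1, had between 1 and 18 reads over all 6 libraries. A difference between the groups was not detectable for them at this depth.

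The order of the libraries was much alike across the collagen genes. Heat 3 was the lowest heat library in 22 of 22 tested collagen genes, and in 46.4% of all tested genes. Control 1 was the highest control in 19 of 22, and in 43.6% of all tested genes. Heat 1 and heat 2 lay above every control in 19 of 22, and in 35.2% of all tested genes. Control 1 was above heat 3 in 12 of 22, and in 46.2% of all tested genes, which is near that background. The median range among controls was 2.05 on the log2 CPM scale for the collagens and 0.84 for all tested genes, and the median range among heat libraries was 1.41 and 0.85. These counts describe 6 libraries and carry no test, and collagen genes measured in the same libraries are not independent of each other.

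Some ratios of chains within a library differed between the groups. The ratio does not depend on the scaling, and it was not corrected for transcript length, so its differences between libraries are read and not its level. With 3 against 3 libraries an exact permutation test cannot go below p = 0.10, so none is given. For type V, the log2 ratio of COL5A1 to COL5A2 was -1.42, -4.32 and -3.22 in control 1, 2 and 3. In heat 1, 2 and 3 it was 0.16, 0.13 and -0.17. The heat libraries lay close together and above every control, with a difference of means of 3.03. For type I, COL1A1 to COL1A2 was -0.54, -3.38 and -2.82 in the controls and -1.01, -1.06 and -1.39 in heat, so control 1 was the highest library and the groups overlapped. The ratio of COL3A1 to COL1A2 also overlapped, at -0.80, 0.57 and 0.34 in the controls against -0.77, -0.70 and -0.96 in heat.

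The network collagens gave 3 such ratios. COL4A1 to COL4A2 hardly moved, at 1.64, 1.10 and 1.08 in the controls and 0.98, 0.95 and 1.07 in heat. The heat values were the lower ones, but control 3 and heat 3 nearly touched, and the difference of means of -0.27 shrank to -0.087 without control 1. COL4A5 to COL4A6 was 4.59, 7.03 and 5.85 in the controls and 3.84, 3.69 and 3.72 in heat, without overlap. COL8A1 to COL8A2 was 11.4, 12.6 and 10.6 in the controls and 8.05, 8.15 and 7.93 in heat, also without overlap. The control values of the COL4A6 and COL8A2 ratios rest on few reads, with 4 and 6 reads of COL4A6 in control 2 and 3 and between 2 and 6 reads of COL8A2 in each control. Ratios were taken only where both chains passed the filter on low counts. COL8A2 reached its level in no control and COL4A6 in 1 control, while both reached it in every heat library. This selection favoured a lower ratio in heat in advance, so the lack of overlap in these ratios does not stand as support for a difference. For type VI, COL6A1 to COL6A2 was 2.00 to 2.51 in controls and 1.67 to 2.11 in heat, with overlap.

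**Figure D4:**
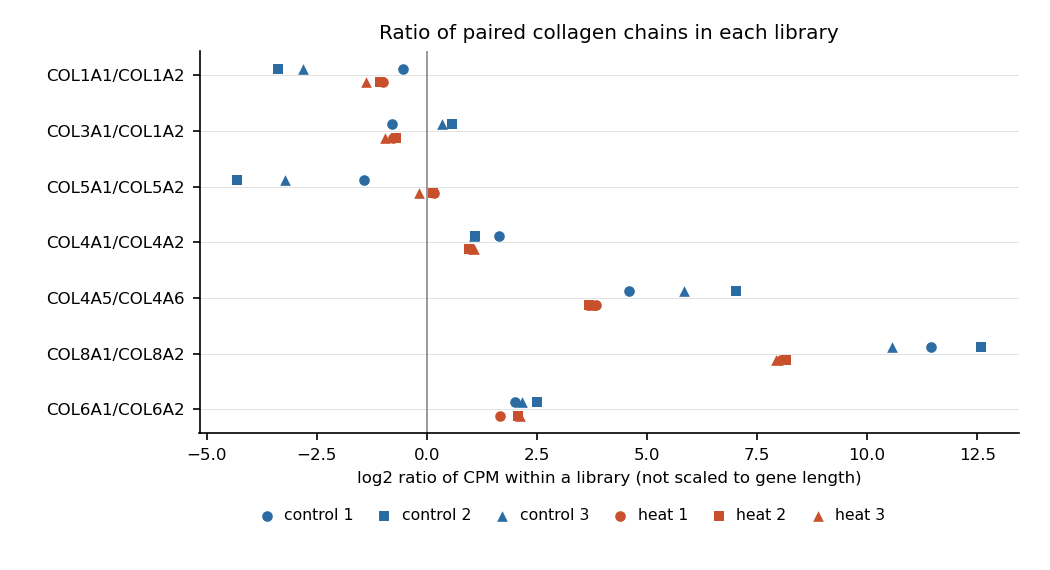
Each point is the log2 ratio of the CPM of 2 collagen chain genes in 1 library (x axis), with controls in blue, heat libraries in orange and the replicate number as the symbol. For COL5A1/COL5A2 the heat libraries lie between -0.17 and 0.16 and the controls between -4.32 and -1.42, while the groups overlap for COL1A1/COL1A2, COL3A1/COL1A2 and COL6A1/COL6A2.

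The fold changes without each library give the same picture gene by gene. COL6A1, COL6A2 and COL8A2 stayed called without control 1 and without heat 3, with edgeR adjusted p-values from 0.00883 to 0.0267. They lost the call without control 2, control 3, heat 1 or heat 2, with edgeR adjusted p-values from 0.133 to 0.166, while their log2 fold changes stayed between 2.17 and 3.58 in these 4 fits. COL1A1 moved most of the tested collagen genes when control 1 was left out. In the same fit the log2 fold change of COL5A1 went from 2.94 to 5.55, that of COL18A1 from 3.43 to 5.19 and that of COL12A1 from 1.29 to 3.59. All 3 were called in that fit, and COL16A1 was not (edgeR adjusted p = 0.0812).

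**Figure D5:**
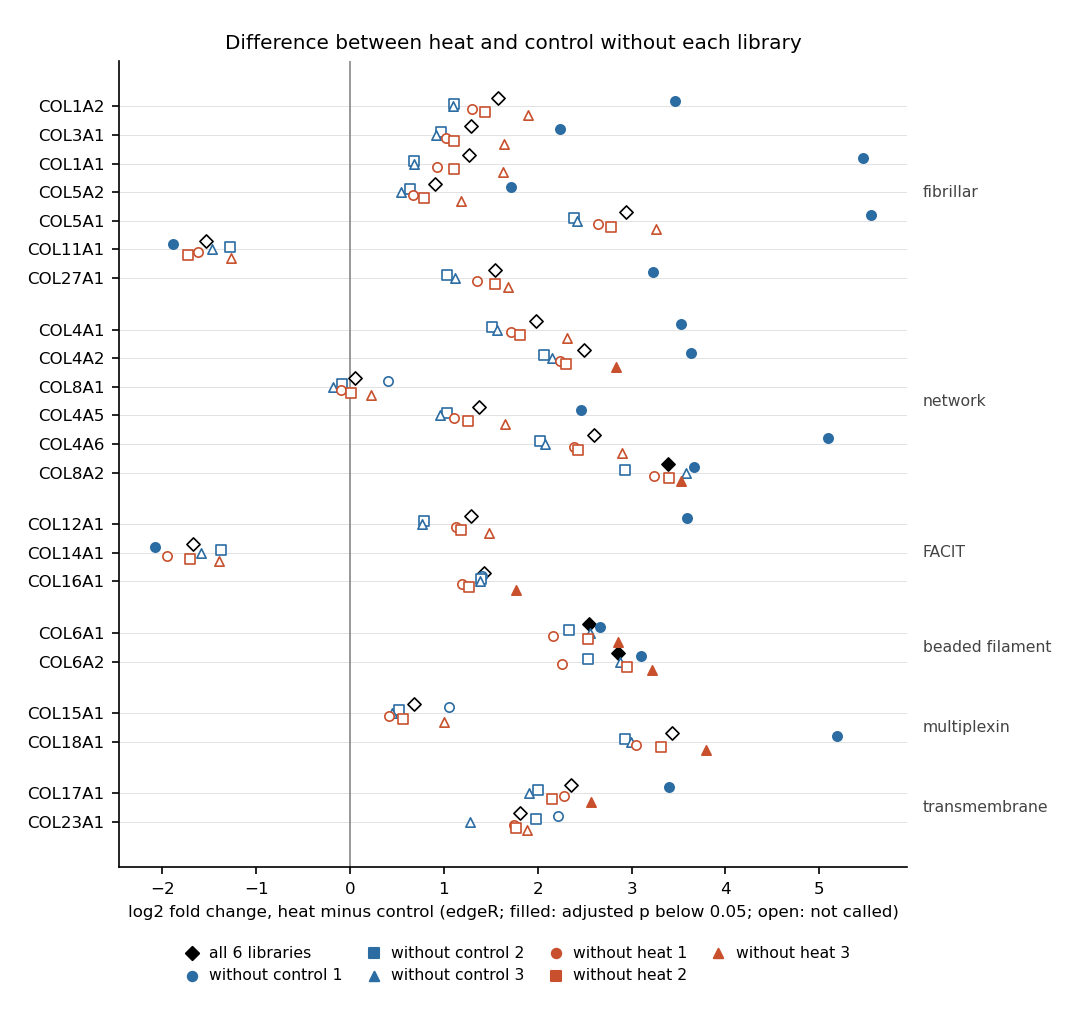
Points give the edgeR log2 fold change, heat minus control (x axis), of each tested collagen gene with all 6 libraries (black) and without each library in turn (blue for a control, orange for a heat library); filled points passed an adjusted p of 0.05. The filled points come from the fits with all libraries, without control 1 and without heat 3, and COL1A1 runs from 0.68 to 5.47.

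Genes that act on collagen were taken from 7 lists, with 87 tested of 99 listed. Of these, 3 were higher and 1 was lower, and their median log2 fold change was 0.71. Of all tested genes 6.71% were higher and 4.32% lower, with a median of 0.05. Without control 1, 41 of these genes were higher and 5 lower (19.6 and 12.3% of all genes). Without heat 3, 18 were higher and 7 lower (18.4 and 17.7% of all genes), and without control 2, control 3, heat 1 or heat 2 none was called. Among 18 tested genes of chain modification and folding, SERPINH1 and P3H3 rose. SERPINH1, the collagen chaperone, stood at 773, 132 and 169 CPM in the controls and at 5468, 4995 and 1409 CPM in heat (log2 fold change 3.47 ± 0.90 SE; edgeR adjusted p = 0.0485). Every heat library was above every control, and the call was lost with RLE size factors (edgeR adjusted p = 0.0506) and with the filter of 10 CPM (0.0524). P3H3, a member of the prolyl 3-hydroxylase family, stood at 13.8, 8.56 and 8.53 CPM in the controls and at 59.5, 50.9 and 19.04 CPM in heat (edgeR adjusted p = 0.0412). Among 8 tested collagen receptors and uptake genes, DDR1, a receptor tyrosine kinase for collagen, rose from 21.5 ± 13.1 to 89.6 ± 35.95 CPM (edgeR adjusted p = 0.0482). Its call was lost with RLE size factors (edgeR adjusted p = 0.0510). ITGA2, the alpha chain of the collagen-binding integrin alpha 2 beta 1, fell from 94.6 ± 39.2 to 19.6 ± 3.97 CPM (log2 fold change -2.27 ± 0.40; edgeR adjusted p = 0.0292). None of the 9 tested genes of secretion, 14 of procollagen processing and crosslinking, 9 fibril-regulating proteoglycans and glycoproteins, 10 of collagen degradation or 19 collagen gene regulators passed.

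Some marker lists of other cells followed the collagen levels and others did not, and their part in the results was not tested. The granulosa list itself summed to 2097, 804 and 698 CPM in control 1, 2 and 3. In heat 1, 2 and 3 it summed to 1803, 1548 and 1131 CPM. There too control 1 was far above the other controls and heat 3 was the lowest heat library, but control 1 was the highest of all libraries. Of 12 stromal fibroblast markers 11 matched a symbol, and none of the 9 tested passed. Their summed level was 932, 155 and 138 CPM in control 1, 2 and 3 and 1236, 1210 and 418 CPM in heat 1, 2 and 3, the same order as the collagen share of counts. PDGFRA, a receptor of fibroblasts, stood at 417, 92.8 and 81.4 CPM in the controls and at 891, 856 and 248 CPM in heat. The fibroblast gene DPT stayed below 1 CPM in every library. The 8 theca markers summed to 6.90 to 86.4 CPM in controls and 38.8 to 131 CPM in heat. Most of this sum was ANPEP, at 4.98 to 76.0 CPM in controls and 32.0 to 99.6 CPM in heat. In every library 5 of the 8 stayed below 1 CPM. Among these, the theca enzyme gene CYP17A1 had no read in the controls. INSL3, the theca hormone gene, had no read in any library. The 9 leukocyte markers summed to 3.34, 34.5 and 69.0 CPM in control 1, 2 and 3 and to 1.31 to 4.39 CPM in heat. This sum was highest in the controls with the lowest collagen share, and most of it there was LYZ, at 26.3 and 54.1 CPM. PTPRC, CSF1R, CD163, AIF1 and TYROBP were also highest in control 2 and control 3. CD14 and CD68 did not have that order, and CD3E had no read in any library. Smooth muscle and pericyte markers summed to 10086 to 10475 CPM in controls and 6896 to 14919 CPM in heat, and this sum did not follow the collagen share. Its largest part in every library was ACTA2. In ACTA2, TAGLN, CNN1, DES, RGS5 and LMOD1 heat 3 was the highest heat library, and in MYH11 every heat library was below every control. MCAM stood at 109, 20.7 and 26.1 CPM in the controls and at 125, 111 and 66.4 CPM in heat. In MCAM and NOTCH3 control 1 was far above the other controls and heat 3 was the lowest heat library, as in most collagen genes. Endothelial markers summed to between 7.95 and 16.4 CPM, and CDH5 had no read in any library. Surface epithelium markers summed to 4.28 to 22.8 CPM in controls and 21.2 to 109 CPM in heat. The 13 mitochondrial protein genes took 25.3, 14.3 and 12.4% of the counts in control 1, 2 and 3 and 7.94, 7.49 and 5.04% in heat.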

How the data were processed

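RNA from 3 control and 3 heat samples was sequenced as stranded mRNA libraries. FastQC 0.11.4, Trim Galore, STAR and the build Sscrofa11.1 are named in the submitters' processing notes. For the counting tool and its strand setting, nothing is stated in the labels. The authors deposited raw counts per Ensembl gene, which were used. Their normalized table was not used. Symbols came from an Ensembl gene table, which named 15623 of 35670 identifiers, and coordinates from RefSeq (Sscrofa11.1), which matched 39 of the 40 collagen genes by symbol. Sequence features were not analysed here.

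Genes were filtered with filterByExpr (minimum count 10), scaled by TMM and tested with edgeR 4.0.16 in R 4.3.3 by the two-sided quasi-likelihood test, with Benjamini-Hochberg adjustment over 14242 genes and a threshold of 0.05. The common biological coefficient of variation was 43.6%. The test was run on simulated data first. DESeq2 1.42.0, limma 3.58.1, other scalings and filters, a replicate block and fits without each library were alternatives. Intervals and floors (3 counts) cover counting error only.

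The collagen genes and all lists were chosen with earlier results of these data known. The genes named are those called, up to 4 tested genes of a class with the highest mean CPM, the chains of the ratios, SERPINH1 and up to 3 called genes of each pathway list. COL11A1, COL27A1, COL11A2, COL9A3, COL5A3, the other untested collagens, and the marker genes given with values were named after their values were seen.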

Additional observations from a re-analysis of the deposited data

How the results depend on the processing

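The calls rest on 3 libraries a group, of which control 1 and heat 3 stood apart, and the cause of the changes below was not tested. For all genes called higher (956) the counts were 1583 with library totals, 1607 with no filter, 532 with a filter of 10 CPM in 3 samples, 2146 with DESeq2, 6285 without control 1 and heat 3, and 0 to 3021 leaving out 1 library. For all genes called lower (615) they were 396 with the 10 CPM filter, 1671 with DESeq2, 5857 without control 1 and heat 3, and 0 to 2713 leaving out 1 library. Of the collagen genes 3 of 22 were higher (6.71% of all genes), and shares of all genes follow in brackets. With library totals 6 of 22 were higher (11.1%), with no filter 7 of 38 (6.24%) and with the 10 CPM filter 1 of 16 (6.96%). COL6A2 and COL8A2 were not tested under the 10 CPM filter. DESeq2 called 11 of 28 higher (12.1%) and limma-voom 5 of 22 (6.65%). Without control 1 and heat 3, 23 of 25 were higher (41.2%), and leaving out 1 library gave 0 to 16 (0 to 19.6%). Collagen genes called lower (0, against 4.32% of all genes) were 1 with no filter (3.30%) and 2 with DESeq2 (9.42%). There were 2 without control 1 and heat 3 (38.4%), and 0 to 2 leaving out 1 library (0 to 17.7%). Pathway genes called higher (3) were 1 with RLE, 5 with upper quartile factors, 19 with library totals, 13 with no filter, 5 with the 10 CPM filter, 21 with DESeq2, 9 with limma-voom, 63 without control 1 and heat 3, and 0 to 41 leaving out 1 library. Pathway genes called lower (1) were 6 with DESeq2, 17 without control 1 and heat 3, and 0 to 7 leaving out 1 library. Library totals moved the median log2 fold change of all genes from 0.05 to 0.17. COL8A1 (0.06) was -0.0018 in DESeq2 and 0.59 without control 1 and heat 3, and ran from -0.18 to 0.40 leaving out 1 library. The difference in collagen share (6.34 percentage points) ran from 5.09 to 8.71 leaving out 1 library. With the replicate number as a block, 2104 genes were higher and 1300 lower (14.8 and 9.13% of all genes). Of 22 collagen genes 15 were higher and 2 lower, and of the pathway genes 30 were higher and 2 lower. The deviations of same-numbered samples correlated at 0.30, -0.23 and 0.22, so the numbers were not taken to pair the samples, and control 2 correlated best with heat 3 (0.29).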
